A study of Mus musculus with 12 samples.

Results

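The 10 genes described here encode the sensors of the unfolded protein response and the enzymes that add or remove the phosphate on the translation factor eIF2α. They were Atf6, Atf6b, Ern1, Xbp1, Eif2ak1, Eif2ak2, Eif2ak3, Eif2ak4, Ppp1r15a and Ppp1r15b, chosen by their symbol in the platform annotation, out of 19505 named genes. Each of the 10 was measured by 1 probe (a transcript cluster, which gives 1 value per array), and a rule for choosing among probes was therefore not needed.

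RNA was taken from cultured S100β-v-erbB/p53-/- TSC1 cells of FVB-NJ mice and hybridised to 12 Clarion S mouse arrays, 3 per group. All cells, controls included, carried the v-erbB oncogene, an activated form of the EGF receptor placed under the S100β promoter, and lacked p53. A control group was kept in normoxia with the solvent DMSO, and the others in hypoxia with DMSO, BFA or EHT-1864, each for 16 h. BFA is brefeldin A, which blocks the exchange factors of ARF GTPases and takes the Golgi apparatus apart, and EHT-1864 inhibits GTPases of the Rac family. EHT-1864 was used at 1 µM. The dose of BFA was given as 1 µM in the treatment and design texts and as 0.1 µM in the title of the series, and the difference was not settled here. No group received a compound in normoxia, so each compound was seen on top of hypoxia. The cultures were called independent in the labels, which do not say whether they came from different animals, so the p-values below measure the spread between these cultures. The oxygen level was not given in the sources used here.

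The unfolded protein response is set off when unfolded proteins gather in the endoplasmic reticulum (ER). ATF6 and its relative ATF6B are membrane-bound transcription factors that travel to the Golgi, where proteases release their active part. IRE1α, made from Ern1, is a kinase and ribonuclease that cuts the Xbp1 mRNA, after which a ligase joins the ends and the message encodes an active transcription factor. PERK, made from Eif2ak3, phosphorylates eIF2α, which slows most translation and favours that of ATF4. Its sister kinases do the same on other signals: HRI (Eif2ak1) on heme shortage and mitochondrial stress, PKR (Eif2ak2) on double-stranded RNA, and GCN2 (Eif2ak4) on amino acid shortage. GADD34 (Ppp1r15a, induced by stress) and CReP (Ppp1r15b, made constantly) bring the phosphatase PP1 to eIF2α and so close the loop. The arrays read mRNA levels only, so neither the cleavage of ATF6, nor the splicing of Xbp1, nor the phosphorylation of eIF2α was seen.

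The values were log2 signals, on which a difference of 1 is a 2-fold change. The medians of the arrays lay between 5.35 and 5.46. A floor was set on each array at the 95th percentile of its negative control probes. It lay at 5.59 to 5.64 on the 6 DMSO arrays, at 5.88 to 6.15 with EHT-1864 and at 6.37 to 6.65 with BFA, and the hybridisation controls were likewise higher with EHT-1864 (10.2 to 10.33) and BFA (10.82 to 11.06) than on the DMSO arrays (9.69 to 9.92). The share of probes above the floor was 47.7% to 48.4% with DMSO, 40% to 44.1% with EHT-1864 and 32.1% to 36.8% with BFA. The part of this difference in the results with BFA was not tested. The values were also computed after a further quantile normalization, and calls among the 10 genes that it ended are named below. The 6 oligodendrocyte lineage markers measured were all above the floor on the DMSO arrays. Their summed linear signal was 11194 to 12323 on DMSO arrays, 4961 to 5838 with EHT-1864 and 2063 to 2159 with BFA. The astrocyte markers, of which 2 or 3 of 6 were above the floor on DMSO arrays, summed to 1105 to 1281 there, 852 to 973 with EHT-1864 and 379 to 475 with BFA. Fibroblast and pericyte markers, of which 1 of 6 was above the floor, went the other way, with sums of 115 to 127 in hypoxia with DMSO, 141 to 146 in normoxia, 153 to 160 with EHT-1864 and 175 to 214 with BFA. Neuron markers, of which 1 or 2 of 6 were above the floor throughout a group, summed to 236 to 320 over the 12 arrays. The part of these shifts in the results below was not tested. The 6 microglial and 5 endothelial markers were below the floor in all groups. In such bulk samples, fewer cells of a type and less RNA per cell cannot be told apart. The p53 gene itself was not analysed here, so its loss was not checked.

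All 10 genes were above the floor on all 12 arrays, with 2 exceptions. Ppp1r15a was below it on the 3 normoxia arrays, and Eif2ak4 on BFA array 1.

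**Figure D1:**
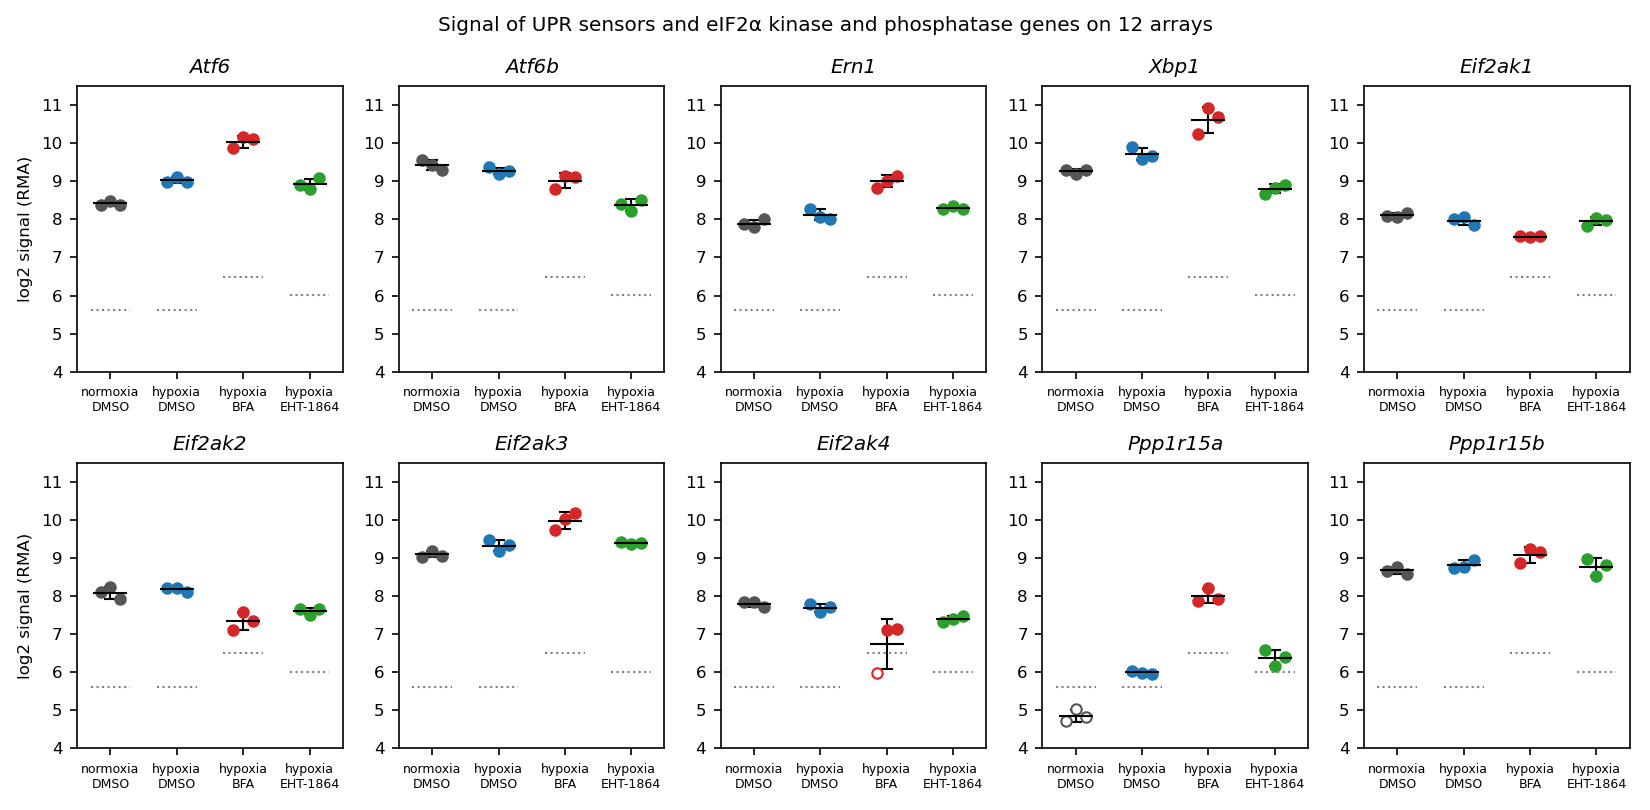
log2 RMA signal (vertical axis) of the 10 genes on the 12 arrays, 1 panel per gene and 1 point per array, by group. Horizontal lines are group means with SD bars (n = 3), dotted lines the mean floor of the group, and open points lie below the floor of their array; Ppp1r15a has means from 4.85 in normoxia to 8 with BFA, whereas Eif2ak2 and Eif2ak4 are lowest with BFA.

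Promoter sequence was at hand for 8 of the 10 genes, as windows of 300 bases (250 before and 50 after the annotated start, RefSeq, build GRCm38.p6), and not for Atf6 and Ppp1r15b. Eif2ak4 had 2 windows, which gave 9. They were searched on both strands for the ER stress elements (ERSE, CCAAT and CCACG at a fixed spacing, found in 0.119% of 32851 mouse promoter windows; ERSE-II, ATTGG and CCACG 1 base apart, in 0.0365%), the core of the UPR element (TGACGTGG, 0.676%), the ATF4 element (TGATGNAAT, 0.965%), the hypoxia-inducible factor cores ACGTG and GCGTG (1 or both in 43.8%) and the interferon core (GAAA, 2 bases, GAAA, in 3.44%). Shorter elements (CCAAT in 37.4%, CCACG in 32.8%, TGACG in 20.8%, TGATGNAA in 3.97%) and the cAMP response element TGACGTCA (1.79%) were added after the first search. The UPR core holds both TGACG and ACGTG, and TGACGTCA holds TGACG on both strands, so these matches overlap. Neither ERSE, nor ERSE-II, the UPR core or the ATF4 element was matched in the 9 windows, which says only that these letters are not within them. Of the windows with matches, 3 are shown: Ppp1r15a, the gene with the largest change below, and Eif2ak3 and Eif2ak2, kinases that moved in opposite directions with BFA. They were picked after the values were seen. The first 280 bases are printed 5′ to 3′ on the strand of the gene, and capitals mark matches to any motif searched, on either strand.
Ppp1r15a: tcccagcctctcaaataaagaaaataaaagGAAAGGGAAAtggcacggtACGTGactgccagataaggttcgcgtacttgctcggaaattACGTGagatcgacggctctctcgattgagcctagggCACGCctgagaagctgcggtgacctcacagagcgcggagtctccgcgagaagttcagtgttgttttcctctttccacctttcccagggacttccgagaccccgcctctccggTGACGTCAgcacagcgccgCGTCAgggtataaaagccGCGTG
Eif2ak3: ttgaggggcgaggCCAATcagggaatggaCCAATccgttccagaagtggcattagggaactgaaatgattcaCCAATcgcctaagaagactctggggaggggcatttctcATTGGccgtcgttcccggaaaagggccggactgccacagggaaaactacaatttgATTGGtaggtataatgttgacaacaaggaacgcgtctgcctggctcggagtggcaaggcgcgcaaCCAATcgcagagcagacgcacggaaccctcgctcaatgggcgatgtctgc
Eif2ak2: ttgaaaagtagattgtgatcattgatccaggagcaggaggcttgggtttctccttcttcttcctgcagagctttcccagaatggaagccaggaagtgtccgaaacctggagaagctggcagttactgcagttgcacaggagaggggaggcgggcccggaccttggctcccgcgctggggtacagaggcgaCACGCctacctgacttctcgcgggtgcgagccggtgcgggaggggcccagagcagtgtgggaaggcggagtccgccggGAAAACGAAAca
The Ppp1r15a stretch is chr7:45526239-45526518 on the minus strand. It holds TGACGTCA at -12 to -5, counted with the first transcribed base as +1 and no 0, and 4 hypoxia-inducible factor cores at -201, -160, -124 and +26. At least 4 such cores were found in 3.86% of all windows. Its interferon core lies at -220 to -211. The Eif2ak3 stretch is chr6:70844265-70844544 on the plus strand and holds 6 CCAAT boxes between -237 and -16, a number reached in 0.0791% of windows. This share and that of 4 cores took the window's own count as the limit, after it was seen, so no rarity is read from them. The Eif2ak2 stretch is chr17:78882543-78882822 on the minus strand and holds an interferon core at +19 to +28 and a GCGTG core, on the opposite strand, at -60. Atf6b (chr17:34646896-34647195, plus strand) held the palindrome CACGTG at -48 to -43, and Xbp1 (chr11:5520391-5520690, plus strand) held no match. A match describes letters and no binding was measured.

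Hypoxia moved few of the genes. With DMSO, Atf6 and Ppp1r15a were higher in hypoxia than in normoxia and the other 8 genes did not pass the test, so that 2 of 10 were called higher against 2.11% of the 22206 probes tested. None of the 10 was called lower (limma, with 0 also at an unadjusted p under 0.05), against 0.563% of all probes. The test throughout was limma's moderated test over all 12 arrays, with Benjamini-Hochberg adjustment over all probes and a threshold of 0.05. The median difference of the 10 genes was 0.19 on the log2 scale, beside -0.03 for all probes.

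BFA moved most of them, with a share of rises above that of all probes and a share of falls near it. It also moved 11269 of the 22206 probes. Against hypoxia with DMSO, 5 of the 10 were higher (26.1% of all probes), namely Ppp1r15a, Atf6, Xbp1, Ern1 and Eif2ak3. A further 3 were lower (24.6% of all probes), namely Eif2ak4, Eif2ak2 and Eif2ak1. The ER stress kinase PERK was thus the only eIF2α kinase of the 4 whose mRNA was called higher, while those of HRI, PKR and GCN2 were called lower, HRI only without quantile normalization. After quantile normalization the split was 6 higher and 2 lower, and all 10 differences lay higher than without it. The median difference was 0.46 over the 10 genes and 0.11 over all probes.

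EHT-1864 gave another pattern. Against hypoxia with DMSO, 3 of the 10 genes were lower (17.4% of all probes), namely Xbp1, Atf6b and Eif2ak2. None was called higher by limma (1 at an unadjusted p under 0.05, which was Ppp1r15a), against 13% of all probes. After quantile normalization or after subtraction of each array's median the split was 1 higher and 3 lower, because Ppp1r15a then passed. The median difference was -0.08, beside 0.06 for all probes.

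Between the compounds, 6 genes were higher with BFA than with EHT-1864 (16.9% of all probes) and 2 were lower, near the 19.6% of all probes. This split was 7 and 0 after quantile normalization and 6 and 1 after subtraction of medians. Against normoxia, the cells with hypoxia and BFA had 6 genes higher (23% of all probes) and 4 lower (24%), or 6 and 2 after quantile normalization. The cells with hypoxia and EHT-1864 had 3 higher (8.1%) and 2 lower (14.3%), or 4 and 1 after quantile normalization. The comparisons share arrays, DMSO in hypoxia above all, so they are not independent of each other.

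**Figure D2:**
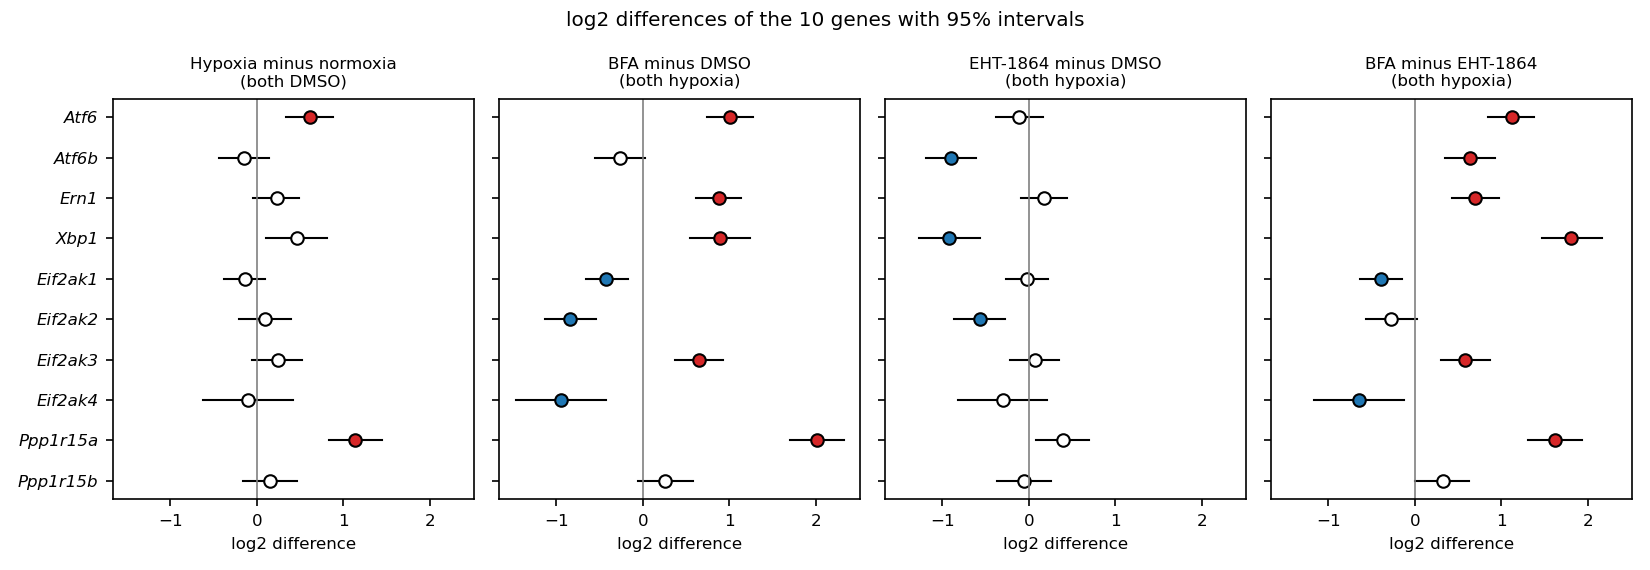
log2 differences (horizontal axis) of the 10 genes in 4 comparisons, with 95% confidence intervals from limma; filled points passed the adjusted threshold of 0.05, red for higher and blue for lower, open points did not. The difference between BFA and DMSO is 2.01 for Ppp1r15a and -0.95 for Eif2ak4, and that between EHT-1864 and DMSO is -0.92 for Xbp1 and -0.90 for Atf6b.

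Among the ATF6 factors, Atf6 rose in hypoxia and rose further with BFA. Its log2 signals were 8.39, 8.49 and 8.39 in normoxia, 8.99, 9.12 and 8.98 in hypoxia, 9.86, 10.15 and 10.11 with BFA, and 8.90, 8.79 and 9.08 with EHT-1864. The normoxia arrays were the lowest and the BFA arrays the highest, and the hypoxia arrays with DMSO and EHT-1864 overlapped between them. Hypoxia raised it by 0.61 ± 0.12 (SE, n = 3 per group; 1.53-fold; limma adjusted p = 0.0194), a call that was lost when any of the 6 arrays compared was left out (0.57 to 0.64, adjusted p 0.0634 to 0.092). BFA raised it by a further 1.01 ± 0.12 (2.01-fold, adjusted p = 2.62e-05). With EHT-1864 the difference from DMSO was -0.11, with a 95% interval from -0.38 to 0.16 (adjusted p = 0.531). Atf6 stayed above normoxia with EHT-1864, by 0.50 (adjusted p = 0.0107, or 0.0515 without EHT-1864 array 3).

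Atf6b, whose product binds the same elements and is held to be a weaker activator than ATF6, moved with the other compound. Its signals were 9.55, 9.44 and 9.29 in normoxia, 9.37, 9.20 and 9.26 in hypoxia, 8.80, 9.14 and 9.12 with BFA, and 8.41, 8.21 and 8.51 with EHT-1864. The EHT-1864 arrays lay apart below the other 9, while those in normoxia and hypoxia overlapped. EHT-1864 lowered it by 0.90 ± 0.13 from a mean of 9.28 to 8.38 (1.87-fold lower, adjusted p = 0.000322). The difference between BFA and DMSO was -0.26 (95% interval -0.55 to 0.03, adjusted p = 0.125) and 0.01 after quantile normalization. That between hypoxia and normoxia was -0.15 (-0.44 to 0.14, adjusted p = 0.66). Against normoxia it was lower with both compounds, with differences of -0.41 for BFA (adjusted p = 0.0244) and -1.05 for EHT-1864 (adjusted p = 0.000116). The first of these calls was lost after quantile normalization (-0.14, adjusted p = 0.368), when the 6 arrays were fitted alone, and without normoxia array 1 (adjusted p = 0.0938), normoxia array 2 (0.0637) or BFA array 1 (0.0822).

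The ratio of Atf6 to Atf6b within an array does not depend on a shift of that whole array. Its level compares 2 probes and is not read as an amount, but its changes are. On the log2 scale it was -1.15, -0.95 and -0.90 in normoxia, -0.37, -0.08 and -0.28 in hypoxia, 1.06, 1.02 and 0.98 with BFA, and 0.49, 0.58 and 0.57 with EHT-1864. No 2 groups overlapped. The ratio rose by 0.76 with hypoxia, by 1.26 with BFA and by 0.79 with EHT-1864, each with an exact two-sided permutation p of 0.1, the smallest that 3 arrays against 3 allow. With BFA most of the change came from Atf6 (1.01) and with EHT-1864 most came from Atf6b (-0.90).

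**Figure D3:**
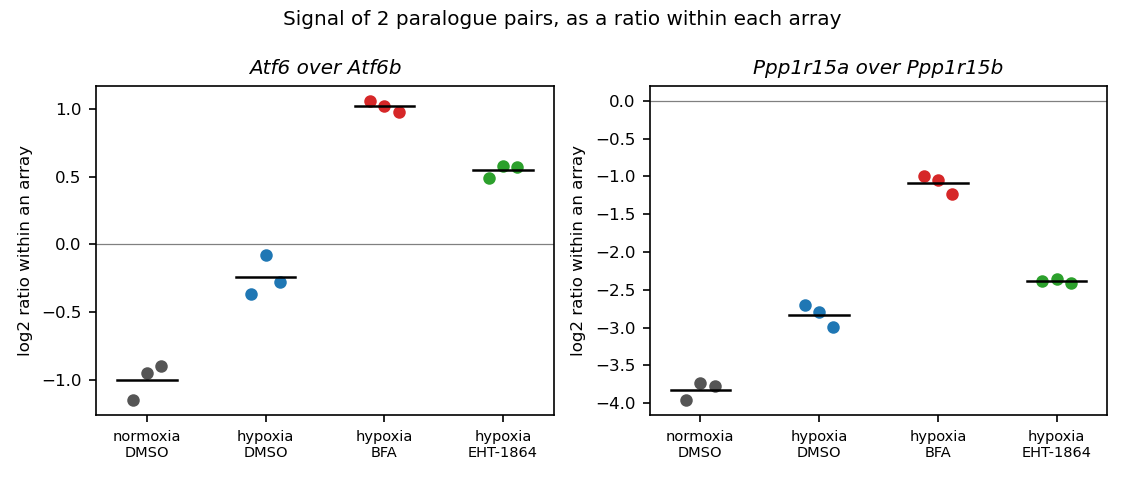
log2 ratio of the signals of Atf6 over Atf6b (left) and Ppp1r15a over Ppp1r15b (right) within each of the 12 arrays, by group, with bars at the means. Both ratios are lowest in normoxia (-1 and -3.82) and highest with BFA (1.02 and -1.09), and the 3 hypoxia groups do not overlap in either panel. Ppp1r15a was below the floor on all 3 normoxia arrays, so the normoxia points on the right are not above background and no separation is read from them.

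In the IRE1 branch, the messages of the sensor and of its substrate both rose with BFA, and with EHT-1864 that of the substrate fell while that of the sensor was not called. Ern1 was at 7.88, 7.80 and 8 in normoxia, 8.27, 8.06 and 8.02 in hypoxia, 8.83, 9.01 and 9.15 with BFA, and 8.27, 8.35 and 8.28 with EHT-1864. The BFA arrays stood clear above all others, and the normoxia arrays lay just below those in hypoxia, without overlap. BFA raised it by 0.88 ± 0.12 over DMSO (1.84-fold, adjusted p = 8.11e-05). The other differences in hypoxia were 0.23 against normoxia (95% interval -0.04 to 0.49, adjusted p = 0.415) and 0.18 for EHT-1864 against DMSO (-0.09 to 0.44, adjusted p = 0.306). Against normoxia, EHT-1864 in hypoxia gave 0.40 (adjusted p = 0.0326), which did not pass with the replicate number as a block, nor without normoxia array 1 or 2 (adjusted p = 0.0922 and 0.124), nor without any 1 of the EHT-1864 arrays (0.063 to 0.0889).

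Xbp1 gave signals of 9.29, 9.19 and 9.30 in normoxia, 9.90, 9.59 and 9.67 in hypoxia, 10.24, 10.91 and 10.69 with BFA, and 8.67, 8.82 and 8.91 with EHT-1864. The 4 groups did not overlap. Their order was EHT-1864, normoxia, hypoxia and BFA from low to high, and the neighbours EHT-1864 and normoxia (0.46 apart) and normoxia and hypoxia (0.46 apart) did not differ by the test, with adjusted p of 0.0569 and 0.169. The first passed in 7 of 20 other fits, among them those without BFA array 1 (adjusted p = 0.0134) or BFA array 2 (0.0317), and its adjusted p ranged from 0.00743 to 0.156. The second passed in 2 of 20, with a trended and robust variance and with array weights, and its adjusted p ranged from 0.0213 to 0.441. The remaining step was called, since BFA raised Xbp1 by 0.89 ± 0.16 over DMSO (1.86-fold, adjusted p = 0.00055). EHT-1864 lowered it by 0.92 ± 0.16 (1.89-fold lower, adjusted p = 0.000955). BFA and EHT-1864 were 1.81 ± 0.16 apart (3.52-fold, adjusted p = 1.88e-06), the largest difference between the compounds among the 10 genes. The probe was read as the whole Xbp1 message, with spliced and unspliced forms not told apart.

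Among the eIF2α kinases, Eif2ak3, the gene of PERK, was higher with BFA. It was at 9.03, 9.18 and 9.05 in normoxia, 9.47, 9.17 and 9.33 in hypoxia, 9.74, 10.02 and 10.17 with BFA, and 9.42, 9.36 and 9.40 with EHT-1864. The BFA arrays were above all others, and normoxia and hypoxia overlapped. BFA raised it by 0.65 ± 0.13 (1.57-fold, adjusted p = 0.00128). The hypoxia difference was 0.24 (95% interval -0.05 to 0.52, adjusted p = 0.424) and that of EHT-1864 was 0.07 (-0.22 to 0.35, adjusted p = 0.73).

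Eif2ak2, the gene of PKR, was lower with both compounds. Its signals were 8.09, 8.22 and 7.91 in normoxia, 8.20, 8.20 and 8.11 in hypoxia, 7.10, 7.58 and 7.33 with BFA, and 7.65, 7.51 and 7.65 with EHT-1864. All 6 arrays with a compound lay below all 6 DMSO arrays, and the 2 compounds overlapped. BFA lowered it by 0.84 ± 0.14 (1.79-fold lower, adjusted p = 0.000267) and EHT-1864 by 0.57 ± 0.14 (1.48-fold lower, adjusted p = 0.00755), both relative to DMSO in hypoxia. The 2 differed by -0.27 (95% interval -0.56 to 0.03, adjusted p = 0.15), which passed without BFA array 2 (-0.39, adjusted p = 0.0383). Hypoxia against normoxia gave 0.10 (-0.20 to 0.40, adjusted p = 0.797). EHT-1864 in hypoxia against normoxia gave -0.47 (adjusted p = 0.0255). That call was lost after quantile normalization (-0.32, adjusted p = 0.0761). It was also lost without normoxia array 1 (0.0769) or 2 (0.11), or EHT-1864 array 2 (0.0831) or 3 (0.0519). Eif2ak2 is known as an interferon-induced gene, and its window held the interferon core shown above. Of 14 measured genes of the interferon response, 12 to 14 were below the floor in both groups of every comparison. Ifit3 was an exception on the EHT-1864 arrays, with signals from 6.44 to 7.91, and was below the floor on the other 9.

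Eif2ak4, the gene of GCN2, was lowest with BFA. It gave 7.83, 7.83 and 7.71 in normoxia, 7.78, 7.58 and 7.71 in hypoxia, 5.98, 7.11 and 7.13 with BFA, and 7.31, 7.39 and 7.47 with EHT-1864. BFA array 1 stood far below the other BFA arrays and below its own floor of 6.65. All 3 BFA arrays were lower than the other 9. BFA lowered it by 0.95 ± 0.24 (adjusted p = 0.00527), and by 0.57 (adjusted p = 0.00173) without array 1. The difference between EHT-1864 and DMSO was -0.30 (95% interval -0.82 to 0.21, adjusted p = 0.368), and it passed only when BFA array 1 was left out of the shared estimate of the spread (adjusted p = 0.0371). That between hypoxia and normoxia was -0.10 (-0.62 to 0.42, adjusted p = 0.895).

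Eif2ak1, the gene of HRI, was at 8.10, 8.06 and 8.17 in normoxia, 8.01, 8.05 and 7.85 in hypoxia, 7.56, 7.54 and 7.57 with BFA, and 7.82, 8.03 and 7.99 with EHT-1864. The BFA arrays lay close together below the rest. BFA lowered it by 0.42 ± 0.11 (1.33-fold lower, adjusted p = 0.00767). This call depended on the scaling, since the difference was -0.08 (adjusted p = 0.618) after quantile normalization, and likewise -0.26 (adjusted p = 0.0974) in place of -0.56 against normoxia. EHT-1864 gave -0.02 (95% interval -0.26 to 0.22, adjusted p = 0.895) and hypoxia -0.14 (-0.38 to 0.10, adjusted p = 0.599).

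The regulatory subunits of the eIF2α phosphatase differed from each other. Ppp1r15a, which encodes GADD34, was at 4.71, 5.02 and 4.81 in normoxia, below the floor, at 6.03, 5.97 and 5.95 in hypoxia, at 7.86, 8.20 and 7.93 with BFA, and at 6.57, 6.15 and 6.40 with EHT-1864. The 4 groups did not overlap, and EHT-1864 array 2 was barely above its floor of 6.15. Hypoxia raised it at least 1.3-fold (fitted difference 1.14, adjusted p = 0.00054), where the bound sets the normoxia arrays at their floor. BFA raised it a further 4.03-fold (2.01 ± 0.14, adjusted p = 2.06e-07), the largest change of the 10 genes. With EHT-1864 the difference from DMSO was 0.39 ± 0.14 (95% interval 0.08 to 0.70, adjusted p = 0.0553). It passed in 8 of 20 other fits, among them quantile normalization (0.56, adjusted p = 0.00447), subtraction of medians (0.44, adjusted p = 0.0333), and leaving out BFA array 1 (adjusted p = 0.044), BFA array 2 (0.0397) or EHT-1864 array 2 (0.0288). From normoxia to BFA the rise was at least 5.23-fold (adjusted p = 4.51e-09).

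Ppp1r15b, which encodes CReP, moved little. It gave 8.66, 8.76 and 8.58 in normoxia, 8.74, 8.77 and 8.95 in hypoxia, 8.85, 9.24 and 9.15 with BFA, and 8.96, 8.51 and 8.82 with EHT-1864, and each group in hypoxia overlapped the next. The difference from DMSO in hypoxia was 0.26 with BFA (95% interval -0.05 to 0.58, adjusted p = 0.15) and -0.06 with EHT-1864 (-0.37 to 0.26, adjusted p = 0.803). With BFA it passed after quantile normalization (0.55, adjusted p = 0.0038) and without BFA array 1 (0.38, adjusted p = 0.049). It was called in BFA against normoxia (0.41, adjusted p = 0.0328), but not with the replicate number as a block, with the 6 arrays fitted alone, or without normoxia array 1 (adjusted p = 0.0769), normoxia array 3 (0.0999), BFA array 2 (0.0994) or BFA array 3 (0.0846). The log2 ratio of Ppp1r15a to Ppp1r15b within an array was -3.82 ± 0.12 (SD, n = 3) in normoxia, -2.83 ± 0.15 in hypoxia, -1.09 ± 0.12 with BFA and -2.39 ± 0.02 with EHT-1864. The 3 hypoxia groups did not overlap, with an exact permutation p of 0.1 for each pair of them, again the smallest possible. The normoxia value rests on a Ppp1r15a signal below the floor, so no separation from it is read.

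The genes downstream of each branch were taken from lists of known targets, and they are set beside the sensors. These lists were chosen with earlier results of these data known, so their counts describe the data and are no independent test. Of 12 measured ATF6 targets (ER chaperones and degradation factors), 11 were higher with BFA than with DMSO (26.1% of all probes) and 0 lower (limma, 0 also at an unadjusted p under 0.05), with a median of 1.21 beside 0.11 for all probes. Creld2 rose by 1.90 and Herpud1, an ER degradation factor, by 1.55. Hspa5, the ER chaperone BiP that holds the sensors inactive, went from 12.03 in hypoxia to 13.30 with BFA (1.27 ± 0.10, adjusted p = 5.38e-07). With EHT-1864, 7 of the 12 were lower (17.4% of all probes) and 0 higher (1 at an unadjusted p under 0.05), with a median of -0.60 beside 0.06 for all probes. Pdia6, a disulfide isomerase that also damps IRE1 and PERK, fell by 1, Sel1l by 0.87 and Hspa5 by 0.65. The other 5 were not called, and the highest of the 12 values was 0.30. In hypoxia, where Atf6 was called higher, 1 of the 12 targets was lower (Sdf2l1, -0.53), against 0.563% of all probes. None was higher (limma, 2 at an unadjusted p under 0.05), against 2.11%, and Hspa5 differed from normoxia by -0.12 (adjusted p = 0.63). This count of 1 ran from 0 to 3 over the other fits. It was 0 when any of the 6 arrays compared was left out, and 2 (1 higher and 1 lower) without BFA array 1 or EHT-1864 array 2.

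Of 19 measured XBP1 targets (genes of translocation, vesicle transport and degradation), 14 were higher with BFA (26.1% of all probes) and 0 lower (0 also unadjusted, limma), with a median of 0.72. Derl3, a channel component of ER degradation, rose by 2.56. Dnajb9, a BiP cofactor, rose from 7.26 in hypoxia to 9.61 (2.35 ± 0.12, adjusted p = 1.7e-08). With EHT-1864, 7 of 19 were lower (17.4% of all probes) and 2 higher, a share under the 13% of all probes, with a median of -0.30. Spcs3, a signal peptidase subunit, fell by 1.61 and the retrieval receptor gene Kdelr3 by 1.55, whereas Derl3 rose by 0.55 and Dnajb9 by 0.43. In hypoxia 1 of 19 was higher (Kdelr3, 2.09), against 2.11% of all probes, and 0 lower (1 at an unadjusted p under 0.05, limma), against 0.563%. Between the compounds 18 of 19 were higher with BFA (16.9% of all probes). No group had a single branch blocked, so the counts of these lists do not tell the ATF6 and XBP1 branches apart.

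IRE1 also degrades other messages, and of 8 such substrates measured, 5 were lower (24.6% of all probes) and 1 higher (26.1%) with BFA, with a median of -0.38 beside 0.11 for all probes. In each comparison of a compound with DMSO, 2 of the 8, Scara3 and Pdgfrb, were below the floor in both groups. Col6a1 fell by 1.44 and Hgsnat by 1.38 (on 2 of the 3 BFA arrays Hgsnat was above the floor), and Tapbp rose by 0.81. With EHT-1864, where Ern1 was not called, 3 of the 8 were lower (17.4% of all probes) and 0 higher (0 also at an unadjusted p under 0.05, limma), and Hgsnat fell by 0.82. Scara3, 1 of the genes called lower with each compound, was below the floor in both groups, so its fitted differences (-0.45 with BFA and -0.85 with EHT-1864) give no fold. In hypoxia 1 of the 8 was higher (2.11% of all probes), Col6a1 by 0.54 (adjusted p = 0.0446) by limma. This was not called after subtraction of medians, with the replicate number as a block, without any of the 6 arrays compared, or without BFA array 3 or EHT-1864 array 1 or 3.

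Most listed genes of the ATF4 and CHOP branch, which lies below all 4 kinases, were higher in hypoxia, where no kinase message was called. Whether they rose through the kinases or by another route in hypoxia was not tested, and membership of the list does not tell these apart. Of 22 measured, 16 were higher, against 2.11% of all probes, and 0 lower (0 also at an unadjusted p under 0.05, limma), against 0.563%. The median was 1.11 beside -0.03 for all probes. Ero1a, an ER oxidase, rose by 3.06 and Ddit4 by 2.34. Ddit3, which encodes CHOP, rose from 7.16 to 8.89 (1.74 ± 0.16, adjusted p = 2.45e-05) and Atf4 from 10.27 to 10.98 (0.72 ± 0.12, adjusted p = 0.00514). BFA raised 13 (26.1% of all probes) and lowered 1 (24.6%) of the 22. Fgf21 rose by 5.88 (2 of the 3 DMSO arrays in hypoxia were below the floor), Atf3 by 3.07, Ddit3 by 2.49 and Atf4 by 1.09, while Ddit4 fell by 0.82. EHT-1864 raised 4 (13% of all probes) and lowered 7 (17.4%). Atf3 rose by 2.28 and Ddit3 by 1.66, Ddit4 fell by 1.79 and Slc7a11 by 1.66, and Atf4 differed by 0.15 (adjusted p = 0.354). The EHT-1864 count of 11 was 7 (2 higher and 5 lower) without hypoxia DMSO array 2.

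**Figure D4:**
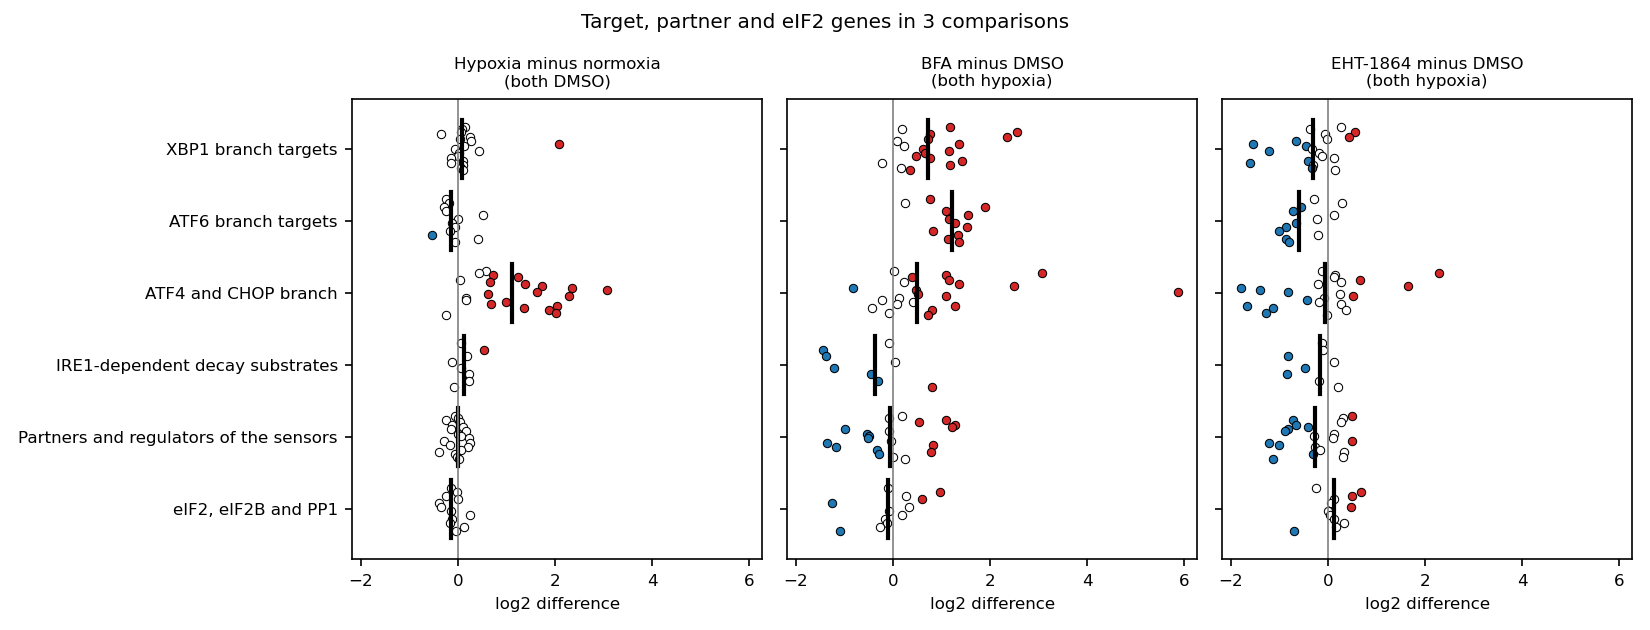
log2 differences (horizontal axis) of the genes of 6 lists in 3 comparisons, 1 point per gene, with black bars at the list medians. Filled points passed the adjusted threshold of 0.05 (red higher, blue lower); with BFA the medians are 0.72 and 1.21 for XBP1 and ATF6 targets, with EHT-1864 they are -0.30 and -0.60, and in hypoxia the ATF4 and CHOP genes stand apart with 1.11.

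Of 20 measured partners and regulators of the sensors, of which Hspa5, Pdia6 and Dnajc3 are also ATF6 targets, 6 were higher (26.1% of all probes) and 8 lower (24.6%) with BFA, so the share of higher genes was near that of all probes. The split was 7 and 3 after quantile normalization and 6 and 6 after subtraction of medians. Of the 20, 4 were below the floor in both groups: Oma1, a mitochondrial protease that signals to HRI (fitted difference -1.35), and Map3k5 (-0.99) were among those called lower, and Ern2 (0.54) and Tarbp2 (0.79) among those called higher. Impact, which restrains GCN2 activation, rose by 1.22 (2.33-fold, adjusted p = 1.61e-05), opposite to Eif2ak4 itself. Prkra, whose product activates PKR, was below the floor on all BFA arrays and lower by at least 1.81-fold (adjusted p = 2.83e-06), like Eif2ak2. With EHT-1864, 2 were higher (Crebzf by 0.50 and Nfyc, a subunit of the CCAAT-binding factor NF-Y, by 0.49), against 13% of all probes, and 9 lower, against 17.4%. The 9 included Oma1 (-1.22) and Map3k5 (-0.82), again below the floor in both groups. Zbtb8os, a cofactor of the ligase that joins spliced Xbp1, fell by 1.14, with 1 of the 3 EHT-1864 arrays above the floor. In hypoxia 0 of 20 were called in either direction (limma, with 0 higher and 2 lower at an unadjusted p under 0.05). Of all probes, 2.11% were higher and 0.563% lower there.

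Eif2s1, the gene of eIF2α itself and so of the kinases' substrate, was not analysed here. Among 12 measured genes of the other eIF2 subunits, its exchange factor eIF2B, the PP1 catalytic subunits and related factors, 2 were higher and 2 lower with BFA, shares below the 26.1% and 24.6% of all probes. BFA raised Eif2b2, an eIF2B subunit, by 0.59, and Eif2a by 0.96. Eif2a encodes eIF2A, an initiation factor apart from the eIF2 complex. It lowered Ppp1cc, a catalytic subunit of PP1, by 1.09, and Eif2b3 at least 1.86-fold, since Eif2b3 was below the floor on all BFA arrays. These 4 calls became 7 (5 higher and 2 lower) after quantile normalization. EHT-1864 raised 3 (13% of all probes), among them Eif2a (0.69) and the eIF2B subunit gene Eif2b1 (0.50), and lowered Ppp1cc by 0.70. In hypoxia 0 of the 12 were called (limma, 1 higher and 3 lower at an unadjusted p under 0.05), against 2.11% of all probes higher and 0.563% lower. The catalytic subunit Ppp1cc thus was lower with BFA where its partner Ppp1r15a was higher.

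Over the 12 arrays the 10 genes fell into sets that moved alike. These correlations describe 4 groups of 3 arrays and share the arrays' scaling. Atf6 and Ppp1r15a had a Pearson r of 0.97, Ern1 and Eif2ak3 0.96, and Atf6 and Ern1 0.94. Xbp1 followed Atf6 less closely (0.82). Eif2ak1 ran opposite to Atf6 (-0.92) and Ppp1r15a (-0.94), and Eif2ak2 went with Eif2ak4 (0.86). Atf6b stood apart from Atf6 (-0.15) and was nearest to Eif2ak2 (0.62). Among 10023 genes above the floor on at least 3 arrays, the gene most like Atf6 was Pck2 (0.9918), with Herpud1 at 0.9843, and that most like Ppp1r15a was Atf4 (0.9897). Xbp1 was most like Sel1l (0.9847), Ern1 like Yipf3 (0.9724), Eif2ak3 like Odf2 (0.9696) and Atf6b like Cmas (0.9906). Eif2ak2 was most like Itfg1 (0.9838), Eif2ak4 like Tcp1 (0.9884), Eif2ak1 like Ndufc2 (0.9602) and Ppp1r15b like Grn (0.9754).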

How the data were processed

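RNA from 12 mouse cell samples was hybridised to Clarion S arrays. The deposited values are log2 signals, 1 per transcript cluster, made by RMA in Affymetrix Expression Console per the submitters' processing notes. RMA corrects background and quantile-normalizes arrays together, and cannot show a change in total RNA. Software versions, RMA settings and the build are not given in the sources used here. Of 28846 rows, 6640 controls were left out and 22206 probes tested, with no filter on level. Symbols came from the platform annotation, updated by Entrez number (19572 probes with 1 symbol, 2634 with none listed here).

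The 12 arrays were fitted together with limma 3.58.1 in R 4.3.3 (lmFit and eBayes, residual df 8, prior df 4.87), with 6 comparisons among the 4 groups, Benjamini-Hochberg adjustment over all probes of a comparison and a threshold of 0.05. Intervals are 95% and cover array spread only. The number of arrays limits the precision. Where all arrays of a group were under their floor, the floor stood for the dim group and the fold is a lower bound (at least). The procedure was tested on simulated data. Target genes are named by rule as at most the 2 largest rises and 2 largest falls past the threshold per list, with Hspa5, Ddit3, Atf4 and Dnajb9 always. The members and the lists were chosen with earlier results of these data known. Alternatives were quantile normalization, subtraction of medians, 2 filters on level, a trended and robust variance, array weights, the 6 arrays of a comparison alone, the replicate number as a block, and each array left out.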

Additional observations from a re-analysis of the deposited data

Results flagged for a closer look

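The effects of the 2 compounds, each against the same DMSO arrays in hypoxia, differed for 8 of the 10 genes when tested directly (BFA minus EHT-1864, log2, with SE, limma adjusted p). Of these, 6 were higher with BFA, against 16.9% of all probes. The other 2 were lower, near the 19.6% of all probes. The differences were 1.81 ± 0.16 for Xbp1 (adjusted p = 1.88e-06), 1.62 ± 0.14 for Ppp1r15a (1.73e-06), 1.12 ± 0.12 for Atf6 (1.28e-05) and 0.70 ± 0.12 for Ern1 (0.000577). They were 0.64 ± 0.13 for Atf6b (0.002) and 0.58 ± 0.13 for Eif2ak3 (0.00346). The 3 BFA arrays were above the 3 EHT-1864 arrays for each of these 6 genes. For Eif2ak1 the difference was -0.39 ± 0.11 (adjusted p = 0.014), which was -0.23 (0.156) after quantile normalization and had an adjusted p of 0.0775 with the 6 arrays fitted alone. For Eif2ak4 it was -0.65 ± 0.24 (adjusted p = 0.0487), with adjusted p from 0.014 to 0.132 over the alternatives. The call was lost in 15 of 20, among them the replicate block (0.0533) and quantile normalization (-0.56, 0.092). Without BFA array 1 the difference was -0.27 (0.0898). Xbp1 was the gene with called effects of opposite sign, higher with BFA and lower with EHT-1864. Ppp1r15b (0.32, adjusted p = 0.108) and Eif2ak2 (-0.27, adjusted p = 0.15) did not pass, except that Ppp1r15b did after quantile normalization (0.47, 0.0112), with a trended and robust variance and without BFA array 1 (0.43, 0.0342), and Eif2ak2 without BFA array 2 (-0.39, 0.0383).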

How the results depend on the processing

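Over 20 alternatives no difference of the 10 genes reversed a call. Among settings other than leaving out an array, 446 member values kept their side of the threshold, 15 fell short of it and 19 newly passed it. Some of the 446, not called in either fit, changed sign. For Atf6b, BFA against DMSO in hypoxia, the difference went from -0.26 to 0.01 after quantile normalization. The count of genes called stayed within 1.5 times its main value in all 48 cases of these settings. Leaving out 1 array gave 1 to 2 genes in hypoxia against normoxia (main 2), 8 to 9 for BFA (8), 3 to 5 for EHT-1864 (3, and 5 without BFA array 1), 7 to 9 between the compounds (8), 8 to 10 for BFA against normoxia (10) and 2 to 7 for EHT-1864 against normoxia (5). The last fell to 3 without normoxia array 1, normoxia array 2 or EHT-1864 array 2, and to 2 without EHT-1864 array 3. Over all probes, the 593 calls of hypoxia against normoxia became 1264 with a minimum level, 1221 with a trended and robust variance, 2258 with array weights, 1234 with the 6 arrays alone, 254 to 315 without any of those arrays and 898 without BFA array 1. The 11269 calls of BFA became 7215 with the minimum level, which tests fewer probes. The share of higher calls in EHT-1864 against normoxia went from 36.2% to 46.9% after quantile normalization, and the median of all probes for BFA against DMSO was 0.11, 0.05 after quantile normalization and 0.19 after subtraction of medians. For BFA against DMSO in hypoxia, quantile normalization moved the differences of all 10 genes upward. The called rises grew, as for Atf6 (1.01 to 1.28) and Ern1 (0.88 to 1.18). The called falls shrank, as for Eif2ak2 (-0.84 to -0.52) and Eif2ak4 (-0.95 to -0.65). With the replicate number as a block the counts of genes called were 2, 8, 3, 7, 9 and 4 in the 6 comparisons. No sign of pairing by number was seen, though 3 arrays per group cannot exclude it. Of 18 same-number pairs, 1 had a correlation of deviations over 0.1 (range -0.18 to 0.17, beside -0.16 to 0.17 for other pairs). Of the 12 arrays, 3 were closest to an array of their own number. The mean over several probes of a gene was not run, since each of the 10 genes had 1 probe. Signal over background limits Ppp1r15a in normoxia and Eif2ak4 with BFA.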

Other observations

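Ifit3, an interferon-induced gene, was on the list set beside Eif2ak2 and was at least 3.05-fold higher with EHT-1864 than with DMSO in hypoxia (fitted difference 4.18 ± 0.41, limma adjusted p = 1.43e-05), with 3 of 3 EHT-1864 arrays above the floor. Eif2ak2 itself was lower there, with a difference of -0.57. Of the other 13 interferon genes, 12 were below the floor in both groups.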
